A study of Homo sapiens with 10 samples.

Results

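The genes CXCL8, CXCL1, CCL2, IL6, IL1B, LIF, PTGS2, ICAM1, NFKBIA and TNFAIP3, 10 inflammatory and NF-kB target genes, were followed through 3 histone acetylation marks in astrocytes that were induced to express IDH1-R132H. Each gene was given a window on hg19, the gene with 10 kb added on either side, and every island of the 9 deposited lists that touched a window was taken. An island is a stretch in which the authors' peak caller found more reads with a histone antibody than with the control. In all, 207 of 778773 islands touched the 10 windows, 22 to 30 in each H3K9ac or H3K27ac list and 14 to 22 in each H4K16ac list.

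The cells were IHA, a line of fetal astrocytes immortalised with SV40 and carrying IDH1-R132H under doxycycline control, and histone acetylation was measured by CUT&RUN, in which an antibody guides a nuclease to the chromatin it binds. Libraries with antibodies against H3K9ac, H3K27ac and H4K16ac came from cells that the labels give as wild type for IDH1 and without doxycycline, and from cells expressing IDH1-R132H that had received 1 µg/ml doxycycline for 2 days or for 7 days. A library made with only the HRP-coupled secondary antibody, again with no doxycycline, was the control against which the islands of all 9 lists were called. There was 1 library per mark and time, so no value below has a replicate error and no test between conditions was possible. Cells treated with doxycycline but lacking the mutant were not profiled here, so doxycycline and time in culture cannot be told apart from the mutant enzyme, and no spike-in is named.

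NF-kB is a family of dimeric transcription factors held in the cytoplasm by inhibitor proteins of the IkB family. Cytokines such as TNF and interleukin-1 activate a kinase complex that marks the inhibitor for degradation, and the freed dimers enter the nucleus and switch on chemokine, cytokine and adhesion genes. They also switch on their own inhibitors, among them the IkB protein encoded by NFKBIA and the ubiquitin-editing enzyme encoded by TNFAIP3, so that the response is limited in time. In astrocytes this pathway is known for the release of chemokines and IL-6 in injured or inflamed brain, and acetylation of H3K27 and H3K9 marks the active promoters and enhancers of such genes.

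The promoters below show 4 members with the NF-kB motif and IL1B, which lacked it in this stretch. Each is the stretch of 250 bases before the gene's start in RefSeq on GRCh38.p14, 5′ to 3′ on the strand of the gene, and capitals mark the letters GGANNTTCC or, on the other strand, GGAANNTCC, a form of the sequence that NF-kB dimers are known to bind. The stretches are CXCL8 at chr4:73740319-73740568 and CXCL1 at chr4:73869143-73869392, both on the plus strand, IL6 at chr7:22726950-22727199 on the plus strand, IL1B at chr2:112836780-112837029 on the minus strand, and NFKBIA at chr14:35404750-35404999 on the minus strand. They were matched to the islands by gene symbol, since the islands are on hg19.
CXCL8: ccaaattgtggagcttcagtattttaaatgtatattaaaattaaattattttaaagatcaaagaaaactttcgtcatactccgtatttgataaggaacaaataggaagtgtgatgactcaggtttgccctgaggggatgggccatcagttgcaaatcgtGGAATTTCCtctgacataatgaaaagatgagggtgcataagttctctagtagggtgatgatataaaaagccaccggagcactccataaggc
CXCL1: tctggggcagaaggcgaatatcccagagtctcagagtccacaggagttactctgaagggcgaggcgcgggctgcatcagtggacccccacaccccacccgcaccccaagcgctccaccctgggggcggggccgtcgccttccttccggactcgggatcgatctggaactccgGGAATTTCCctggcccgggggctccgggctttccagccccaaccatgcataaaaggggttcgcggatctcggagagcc
IL6: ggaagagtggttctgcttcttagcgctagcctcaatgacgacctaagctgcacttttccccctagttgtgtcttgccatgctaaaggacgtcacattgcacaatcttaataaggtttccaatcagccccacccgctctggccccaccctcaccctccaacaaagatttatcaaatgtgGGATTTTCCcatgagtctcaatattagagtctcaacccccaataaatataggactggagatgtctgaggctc
IL1B: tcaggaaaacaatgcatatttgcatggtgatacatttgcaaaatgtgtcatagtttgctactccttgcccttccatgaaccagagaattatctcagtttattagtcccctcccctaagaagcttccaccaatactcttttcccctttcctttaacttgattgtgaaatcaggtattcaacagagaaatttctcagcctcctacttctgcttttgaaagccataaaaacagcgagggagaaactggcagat
NFKBIA: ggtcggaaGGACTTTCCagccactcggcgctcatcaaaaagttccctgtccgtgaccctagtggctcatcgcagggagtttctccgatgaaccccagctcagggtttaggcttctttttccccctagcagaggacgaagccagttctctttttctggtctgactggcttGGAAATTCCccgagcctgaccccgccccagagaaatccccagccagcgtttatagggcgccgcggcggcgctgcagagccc

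The RefSeq table held 8 of the 10 genes, all but CCL2 and LIF. Of these 8 promoters, 6 held the motif on one strand or the other, namely CXCL8, CXCL1, IL6, NFKBIA, TNFAIP3 and ICAM1, against 3.84% of all 35116 promoters of the same length. NFKBIA had 2 matches, and CXCL8 and CXCL1 had the same letters, GGAATTTCC, which fit both patterns. IL1B and PTGS2 had no match in this stretch. The motif was chosen after the sequences were seen, and a match describes letters, not binding.

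In summed reads the median log2 ratio over these genes was -0.27 at 2 days and -0.42 at 7 days, in H3K27ac and H3K9ac alike. In H3K27ac 10 genes were below 0 at 2 days and 7 at 7 days, beside 68.1% and 63.7% of all 25 kb windows of the genome. In H3K9ac 7 genes were below 0 at each time, beside 51.6% and 46.0% of all windows. H3K9ac ratios ran from -2.15 to 0.65 at 2 days and from -1.91 to 0.75 at 7 days. Dividing by island length changed the medians of both marks. H4K16ac was uneven. CXCL1 had the lowest ratio of the 10 in H3K9ac at both times and in H3K27ac at 7 days, and at 7 days no H3K27ac island was listed at its start. The other 9 genes kept an H3K27ac island within 1 kb of the start in all 3 libraries. TNFAIP3 had more H3K9ac reads at both later times, with an island at its start that was not listed without doxycycline. NFKBIA and TNFAIP3, the inhibitors, had the largest H4K16ac ratios at 7 days of the 9 genes with a ratio, but those islands were wider and less dense, and with windows widened by 25 kb both were under 2-fold.

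Values are antibody reads in the islands touching a window, summed over whole islands. A ratio divides each sum by the relative size of its library, which the lists give as a fixed constant against the shared control, and is given as log2 with an exact 95% interval that covers counting error only. Whether PCR copies of one molecule were removed before counting was not stated. If copies were counted as separate reads, these intervals may be too narrow even for counting error. The H3K9ac libraries had relative sizes of 3.05 with no doxycycline, 4.17 at 2 days and 4.88 at 7 days. The H3K27ac libraries had 3.98, 3.15 and 1.49 and the H4K16ac libraries 2.53, 3.08 and 7.88, so raw counts cannot be compared between times before scaling. Lists ranged from 52044 to 110234 islands, with 4209773 to 18664203 antibody reads in them. Of the astrocyte genes checked, GFAP and VIM had H3K9ac and H3K27ac islands at all 3 times, S100B had none of H3K27ac, and AQP4, a defining water channel of astrocytes, had no island in any list.

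**Figure D1:**
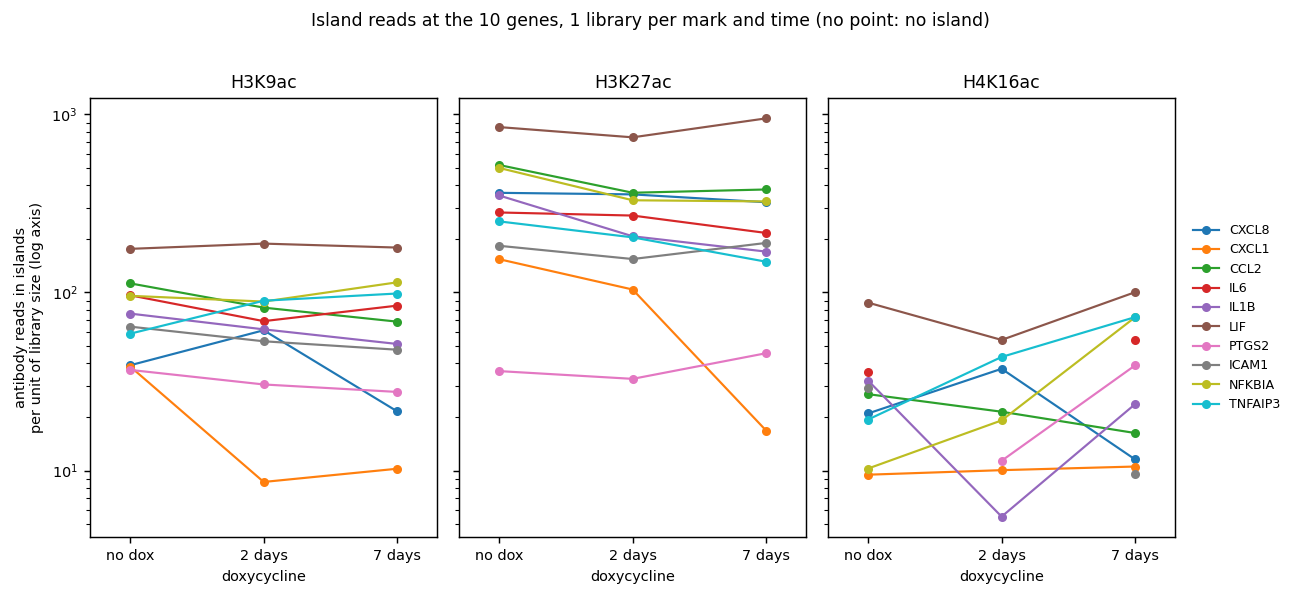
Antibody reads in the islands touching each of the 10 gene windows, divided by relative library size (log axis), for H3K9ac, H3K27ac and H4K16ac without doxycycline and at 2 and 7 days, with 1 library per point, a line joining the 3 libraries of a gene, and no point where no island was listed. Windows differ in length, so the lines are to be followed over time and not ranked: the CXCL1 line is lower at both later times in H3K9ac and H3K27ac, and the NFKBIA and TNFAIP3 lines are higher at 7 days in H4K16ac.

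CXCL8 encodes interleukin-8, a chemokine that attracts neutrophils. Its window (chromosome 4, 74596001 to 74619000) held 1444 H3K27ac reads without doxycycline, 1119 at 2 days and 479 at 7 days. H3K9ac reads there numbered 119, 256 and 105 over the same series, and H4K16ac reads 53, 115 and 91. Scaled by library size, H3K27ac was level, while H3K9ac and H4K16ac sums were each highest at 2 days and lowest at 7 days. The H3K27ac log2 ratio was -0.03 at 2 days (interval -0.14 to 0.08) and -0.18 at 7 days (-0.33 to -0.03). The H3K9ac ratio was 0.65 at 2 days (0.33 to 0.98) and -0.86 at 7 days (-1.25 to -0.47), and the H4K16ac ratio was 0.83 (0.35 to 1.33) and -0.86 (-1.36 to -0.34). The H3K9ac ratios per kb of island were 0.12 and 0.24, since the called length was 13 kb at 2 days and 4.2 kb at 7 days, against 9 kb without doxycycline. In the whole island over the start, H3K9ac was lower at both times, at -1.89 and -0.86. That island was 9 kb wide without doxycycline, 2.4 kb at 2 days and 4.2 kb at 7 days. The H4K16ac direction also depended on the sum: its ratios were -0.60 and -1.02 per kb, and -0.15 and 0.23 with the window widened by 25 kb.

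Most of the H3K27ac at CXCL8 lay upstream of the gene. Without doxycycline an island of 25 kb with 1218 reads ran from 28.2 to 3.2 kb before the start, and a second of 4.8 kb with 226 reads lay over it. At 7 days the upstream stretch was listed as 2 islands, of 370 and 64 reads, and the island over the start was 2.6 kb wide with 45 reads. Counting only the reads inside the window gave a log2 ratio of -0.66 at 7 days, and counting only islands at the start gave -0.91. At 2 days the start island was higher, at 0.32. The lower value at 7 days came with a shorter start island. Scaled by library size, it held 56.8 reads in 4.8 kb without doxycycline and 30.2 reads in 2.6 kb at 7 days. The level total was thus mostly that of the upstream islands.

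CXCL1 encodes a chemokine of the same family that also attracts neutrophils. Its window (chromosome 4, 74725001 to 74747000) held 612 H3K27ac reads without doxycycline, 327 at 2 days and 25 at 7 days. Its log2 ratio was -0.57 at 2 days (-0.76 to -0.37) and -3.20 at 7 days (-3.84 to -2.62), the lowest H3K27ac ratio of the 10 genes at 7 days. Among all consecutive 25 kb windows of the genome that could be compared, 0.798% had a lower ratio at 7 days. At the start, 192 reads in an island of 7.8 kb without doxycycline were followed by 61 reads in 4.2 kb at 2 days and no island at 7 days. The library size at 7 days predicted 71.9 reads for that start island. Of all H3K27ac islands without doxycycline with 50 to 100 reads expected at 7 days, 449 of 11349, or 3.96%, had no island over them at 7 days.

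Part of the size of the CXCL1 ratio came from an island at the edge of its window. An island of 372 reads downstream of the gene overlapped the window by 0.2 kb without doxycycline, and so did one of 230 reads at 2 days, and none did at 7 days. With reads shared out by length inside the window, the log2 ratio was -0.84 at 2 days and -1.83 at 7 days. With the window widened by 25 kb it was -1.32 at 7 days, and per kb of island it was 0.025, where the only island at 7 days was 1.8 kb wide and lay 3.6 to 5.4 kb before the start. The CXCL1 total was thus lower at 7 days in each of these sums, and the size of the difference depended on the sum.

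H3K9ac at CXCL1 was 117 reads without doxycycline, 36 at 2 days and 50 at 7 days. These give log2 ratios of -2.15 at 2 days (-2.73 to -1.60) and of -1.91 at 7 days (-2.41 to -1.42). The H3K9ac island at the start was nevertheless listed in all 3 libraries, with 33, 36 and 50 reads, and its own ratio was -0.33 at 2 days and -0.08 at 7 days. The lower totals came from 2 other islands, of 34 and 50 reads, that were listed only without doxycycline. Islands of this size often went unlisted later. Of all H3K9ac islands with 20 to 50 reads expected at 2 days, 46.1% had no island over them then. With 50 to 100 reads expected the share was 25.7% at 2 days and 31.0% at 7 days. Counted over a window widened by 25 kb, the CXCL1 ratio at 7 days was 0.39. H4K16ac had 24, 31 and 83 reads and ratios of 0.08 and 0.15, with intervals that spanned 0. The 83 reads at 7 days lay in an island that overlapped the window by 0.2 kb, and inside the window alone the ratio was -3.94.

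CCL2 encodes the chemokine MCP-1, which attracts monocytes. Its window (chromosome 17, 32572001 to 32594000) held 2069 H3K27ac reads without doxycycline, 1143 at 2 days and 565 at 7 days. The summed ratio was -0.52 at 2 days (-0.62 to -0.41) and -0.46 at 7 days (-0.59 to -0.32). The single island without doxycycline, 26.4 kb wide, began 21.4 kb before the start, whereas the islands at 2 and 7 days began 10.4 and 12.2 kb before it. Inside the window alone the ratio was 0.26 at 2 days and 0.28 at 7 days. H3K9ac held 343, 343 and 335 reads, with log2 ratios of -0.45 (-0.67 to -0.23) and -0.71 (-0.94 to -0.49), and H4K16ac held 68, 66 and 128 reads, with ratios of -0.33 and -0.73. In the whole island over the start H4K16ac was higher, at 1.44 and 1.04, on 20, 66 and 128 reads in 1.2, 4.6 and 3.6 kb.

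IL6 encodes interleukin-6, a cytokine that astrocytes release in inflammation. Its window (chromosome 7, 22757001 to 22782000) held 1120, 851 and 322 H3K27ac reads without doxycycline, at 2 days and at 7 days. The H3K27ac ratio was -0.06 at 2 days (-0.19 to 0.07) and -0.38 at 7 days (-0.57 to -0.20), and the island over the start was 11.6, 10.4 and 6.8 kb wide in the same order. H3K9ac held 294, 288 and 412 reads, with ratios of -0.48 and -0.19. For H4K16ac there were 90 reads without doxycycline, no island listed at 2 days and 424 reads at 7 days, and the 7-day ratio was 0.60 (0.27 to 0.94) in sums and -0.99 per kb. H4K16ac reads at 7 days were thus spread over 16.2 kb, against 5.4 kb without doxycycline.

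IL1B encodes interleukin-1 beta, a cytokine that itself activates NF-kB. Its window (chromosome 2, 113577001 to 113604000) held 1395 H3K27ac reads without doxycycline, 651 at 2 days and 253 at 7 days. The summed H3K27ac ratio was -0.76 at 2 days (-0.90 to -0.63) and -1.05 at 7 days (-1.25 to -0.85), the second-lowest of the 10 genes at 7 days. An island of 620 reads, of whose 14.6 kb only 1.8 kb lay in the window, made up a large part of the sum without doxycycline. Inside the window the ratio was -0.05 at 2 days and -0.33 at 7 days, and at the start it was 0.22 and -0.07. With 25 kb of widening it was -0.06 at 2 days and -0.41 at 7 days. The size of the lower sum thus depended on which islands touched the window edge beyond the 3′ end of the gene. H3K9ac held 232, 259 and 251 reads, with ratios of -0.29 (-0.55 to -0.03) and -0.57 (-0.83 to -0.30). In the whole island over the start its ratio at 7 days was -1.33, on 4.2 kb against 10 kb without doxycycline. H4K16ac held 81, 17 and 186 reads, and its ratio of -2.54 at 2 days (-3.39 to -1.77) rested on a single island of 0.4 kb, which per kb gave 1.55.

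LIF encodes leukemia inhibitory factor, a cytokine of the interleukin-6 family. Its window (chromosome 22, 30626001 to 30653000) held 3379 H3K27ac reads without doxycycline in 1 island of 37.8 kb that spanned the gene and both flanks. At 2 days 2340 reads lay in islands of 25.6 and 8.6 kb, and at 7 days 1417 reads lay in islands of 27.6 and 9.6 kb, so the domain kept its extent and was broken once. The H3K27ac ratio was -0.19 at 2 days (-0.27 to -0.11) and 0.16 at 7 days (0.07 to 0.25). H3K9ac held 536, 785 and 873 reads, with ratios of 0.10 and 0.02 whose intervals spanned 0. In the whole island over the start H3K9ac was lower, at -1.36 and -1.40. That island was 18 kb wide without doxycycline, 9.4 kb at 2 days and 7 kb at 7 days. Separate islands listed beside it at the later times were not counted in these ratios. H4K16ac held 222, 167 and 791 reads, with ratios of -0.70 (-0.99 to -0.40) and 0.20 (-0.02 to 0.42), and an H4K16ac island lay at the start at 7 days only.

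PTGS2 encodes cyclooxygenase-2, the inducible enzyme of prostaglandin synthesis. Its window (chromosome 1, 186631001 to 186660000) held a single H3K27ac island, over the start, with 144 reads before induction, 103 at 2 days and 68 at 7 days. Its ratio was -0.14 at 2 days (-0.52 to 0.23) and 0.33 at 7 days (-0.10 to 0.76), and both intervals spanned 0. H3K9ac held 112, 127 and 135 reads, with ratios of -0.27 (-0.65 to 0.11) and -0.41 (-0.78 to -0.04). No H4K16ac island was listed before induction, whereas 35 reads were counted at 2 days and 307 at 7 days, and the 7-day list alone had an H4K16ac island at the start, of 208 reads. With 25 kb of widening an island was listed before induction too, and the H4K16ac ratio was 2.54 at 2 days and 2.75 at 7 days.

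ICAM1 encodes an adhesion molecule to which leukocytes bind. Its window (chromosome 19, 10371001 to 10407000) reached toward the neighbouring genes MRPL4 and ICAM4, so its islands cannot all be given to ICAM1. It held 728, 485 and 283 H3K27ac reads without doxycycline, at 2 days and at 7 days, with log2 ratios of -0.25 (-0.42 to -0.08) and 0.05 (-0.15 to 0.25). H3K9ac held 196, 222 and 233 reads, with ratios of -0.27 (-0.56 to 0.01) and -0.43 (-0.71 to -0.15). H4K16ac was lower at 7 days, with 75 reads against 74 in the much smaller library without doxycycline, which gives -1.62 (-2.10 to -1.14) in sums, -0.86 per kb and -0.82 with 25 kb of widening. No H4K16ac island was listed at 2 days.

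NFKBIA encodes IkB-alpha, the inhibitor that NF-kB induces within its own feedback loop. Its window (chromosome 14, 35861001 to 35884000) held 1992 H3K27ac reads without doxycycline, 1037 at 2 days and 484 at 7 days. The log2 ratio was -0.60 at 2 days (-0.71 to -0.49) and -0.62 at 7 days (-0.77 to -0.48). The island over the gene did not follow this: it held 770, 578 and 361 reads, and its own ratio was -0.08 at 2 days and 0.32 at 7 days. The lower sums came from flanking islands of 578 and 644 reads without doxycycline, both of which reached beyond the window. Inside the window the ratio was -0.20 at 2 days and 0.08 at 7 days. With 25 kb of widening it was -0.19 and -0.04, so the lower sums depended on which flanking islands touched the window.

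H3K9ac at NFKBIA held 292, 371 and 557 reads, with ratios of -0.11 (-0.33 to 0.12) and 0.25 (0.04 to 0.46). In the whole island over the start its reads were 104, 193 and 358, in 6, 5.2 and 12.2 kb, and the ratio was 0.44 at 2 days and 1.10 at 7 days. Inside the window it was 0.68 and 1.06, as an island of 160 reads without doxycycline lay almost wholly outside. H4K16ac held 26 reads in 1 kb without doxycycline, 59 in 3.4 kb at 2 days and 572 in 18 kb at 7 days. The ratio was 0.90 at 2 days (0.21 to 1.62) and 2.82 at 7 days (2.26 to 3.45), a value that 3.30% of all 25 kb windows exceeded. Inside the window the 7-day ratio was 2.00, and with 25 kb of widening it was 0.64. The 7-day ratio per kb was -1.35, so the sum was higher through a much longer called stretch of lower density, which ran from 17.8 kb before the start to 0.2 kb after it.

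TNFAIP3 encodes A20, the enzyme that edits ubiquitin chains to end NF-kB signalling. Its window (chromosome 6, 138178001 to 138214000) held 179 H3K9ac reads without doxycycline, 375 at 2 days and 482 at 7 days. The H3K9ac ratio was 0.61 at 2 days (0.35 to 0.88) and 0.75 at 7 days (0.50 to 1.00), the only H3K9ac ratios of the 10 genes with intervals above 0 at both times. An island at the start held 181 reads at 2 days and 284 at 7 days, and none was listed there without doxycycline. The ratios per kb were -0.01 and -0.10, so the density within islands was level and the called length was longer, at 16 and 18.8 kb, against 10.4 kb without doxycycline.

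H3K27ac at TNFAIP3 went the other way, with 998 reads without doxycycline, 642 at 2 days and 222 at 7 days. The log2 ratio was -0.30 at 2 days (-0.44 to -0.15) and -0.75 at 7 days (-0.97 to -0.54). The island over the start ended 17.8 kb after it without doxycycline, 9.2 kb after it at 2 days and 7.8 kb after it at 7 days, so less of the gene body was covered. Reads inside the window gave ratios of -0.36 and -0.56. Density was higher, with ratios per kb of 0.49 and 0.42. H4K16ac held 49, 134 and 573 reads, with ratios of 1.17 (0.68 to 1.67) and 1.91 (1.49 to 2.36). These were -0.20 and -0.40 per kb, and 0.098 and 0.88 with 25 kb of widening, and no H4K16ac island lay at the start in any library.

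**Figure D2:**
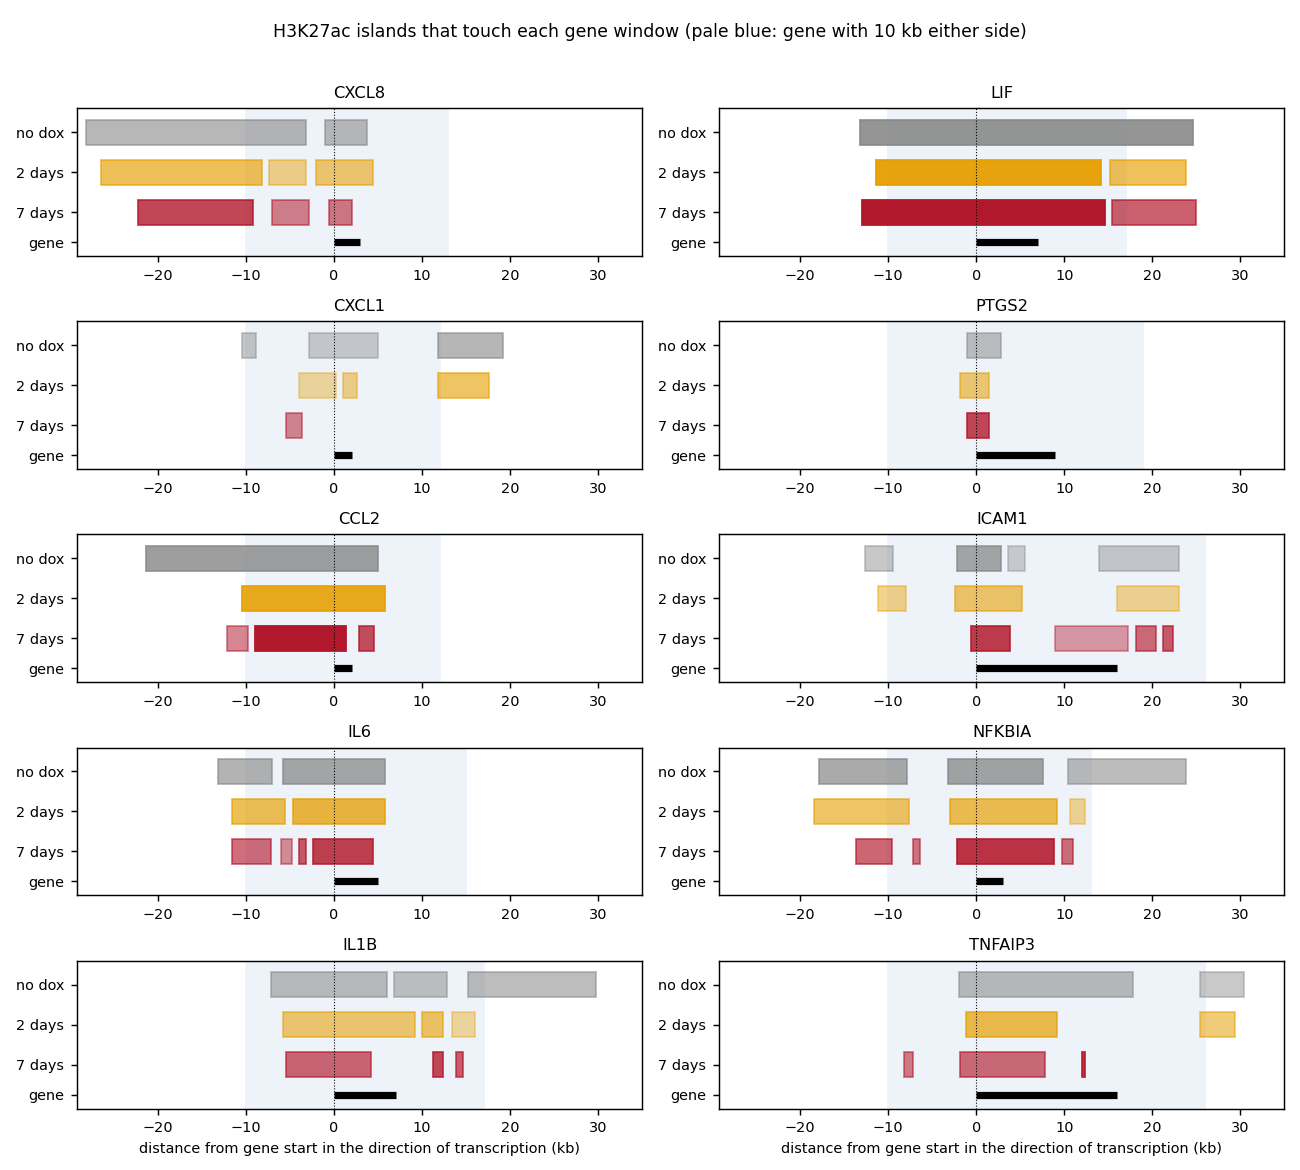
H3K27ac islands that touch each gene window, drawn to scale by distance from the gene start in the direction of transcription (kb), with a row each for no doxycycline, 2 days and 7 days; the black bar is the gene, pale blue its window with 10 kb on either side, and a darker island holds more reads per kb per unit of library size. The LIF domain keeps its extent, the TNFAIP3 island is shorter at 2 and 7 days, and at CXCL1 the only island at 7 days lies 3.6 to 5.4 kb before the start.

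Density can be compared between genes within a library, and its order was partly the same at the 3 times. In reads per kb of island and unit of library size, H3K27ac without doxycycline was highest at LIF with 22.5 reads and CCL2 with 19.7, and lowest at CXCL1 with 9.15. At 2 days CCL2 had 22.4, LIF 21.7 and ICAM1, the lowest, 8.66. At 7 days CCL2 had 25.9, LIF 25.5 and CXCL1, again the lowest, 9.31. LIF and CCL2 were thus densest in all 3 libraries. H3K9ac densities lay closer together, between 4.34 and 7.53 without doxycycline, 4.72 and 7.94 at 2 days, and 4.35 and 8.53 at 7 days.

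Over the 10 genes together, the H3K27ac log2 ratio was below 0 in all 10 at 2 days, with a median of -0.27 and none at least 2-fold lower or higher. Of all 25 kb windows, 68.1% were below 0 at 2 days, the median was -0.14, and 7.56% lay at or below -1 and 1.68% at or above 1, the 2-fold bounds. At 7 days the median over the genes was -0.42, with 7 of 10 below 0 and 2 at least 2-fold lower, CXCL1 and IL1B, and none higher. Over all windows at 7 days the median was -0.21, 63.7% were below 0, and the shares past 2-fold were 15.6% lower and 3.51% higher. The counts past 2-fold at the genes thus lay near those of the genome, and the median of whole islands was a little lower. With reads shared out by length the medians over the genes were -0.15 at 2 days and -0.10 at 7 days. With 25 kb of widening they were -0.11 and -0.13. These lay near or above the medians of all windows. Counted per kb, the median over the genes was 0.0082 at 2 days and 0.39 at 7 days, beside 0.14 and 0.43 over all windows, so the direction of the H3K27ac difference depended on whether length was counted.

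**Figure D3:**
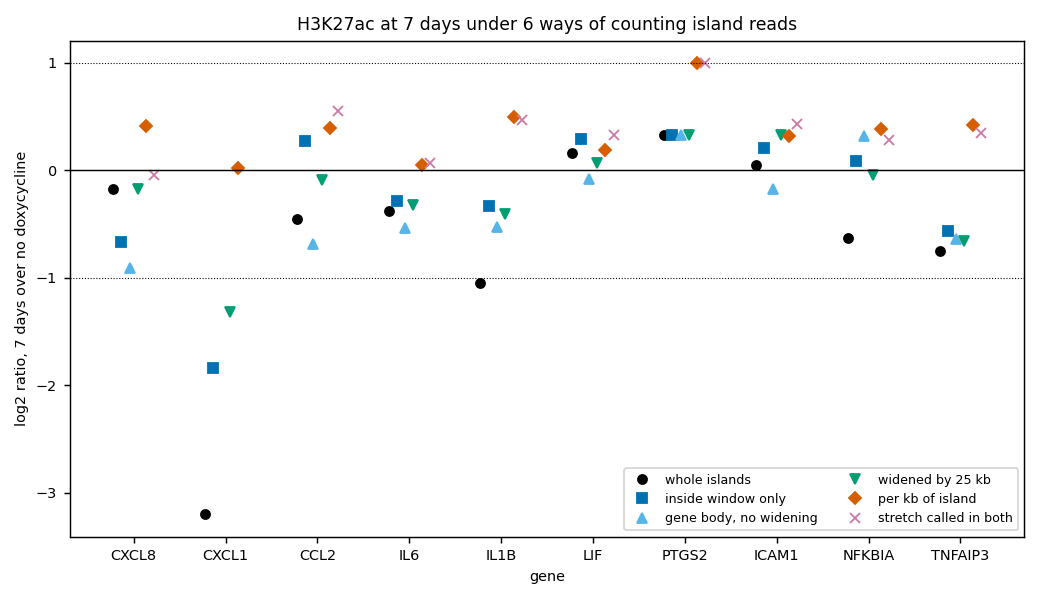
The H3K27ac log2 ratio of 7 days over no doxycycline at each gene under 6 ways of counting island reads (symbols), with dotted lines at 2-fold. CXCL1 is past 2-fold lower with whole islands, inside the window and with 25 kb of widening, while every gene is above 0 per kb of island.

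For H3K9ac the median over the genes was -0.27 at 2 days and -0.42 at 7 days, with 7 of 10 genes below 0 at each time. Of all windows, 51.6% were below 0 at 2 days and 46.0% at 7 days. Among the genes only CXCL1 was at least 2-fold lower, at both times, and none was higher. Among all windows the median was -0.026 at 2 days, with 11.3% at least 2-fold lower and 9.54% higher, and 0.064 at 7 days, with 8.95% lower and 12.3% higher. A count of 1 in 10 lay near these shares, and the median over the genes lay below that of the genome at both times. Per kb the order turned, with medians over the genes of 0.06 and -0.04, above those of all windows, -0.042 and -0.18.

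For H4K16ac a ratio could be taken at 7 genes at 2 days and 9 genes at 7 days. At 2 days the median was 0.08, with IL1B at least 2-fold lower and TNFAIP3 at least 2-fold higher, beside 14.2% and 22.0% of all windows and a median of 0.22 over them. At 7 days the median was 0.15, with ICAM1 at least 2-fold lower and NFKBIA and TNFAIP3 higher, beside 4.04% and 41.8% of all windows and a median of 0.80. The median over the genes thus lay below that of the genome at 7 days. With 25 kb of widening the counts were the same but the genes were not: CXCL1 was lower, at -1.69, and PTGS2 and IL6 were higher, at 2.75 and 1.09. That library was 3.11 times as large as the one before induction, and per kb all 9 genes were below 0 at 7 days, with a median of -0.73 beside -0.58 over all windows.

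**Figure D4:**
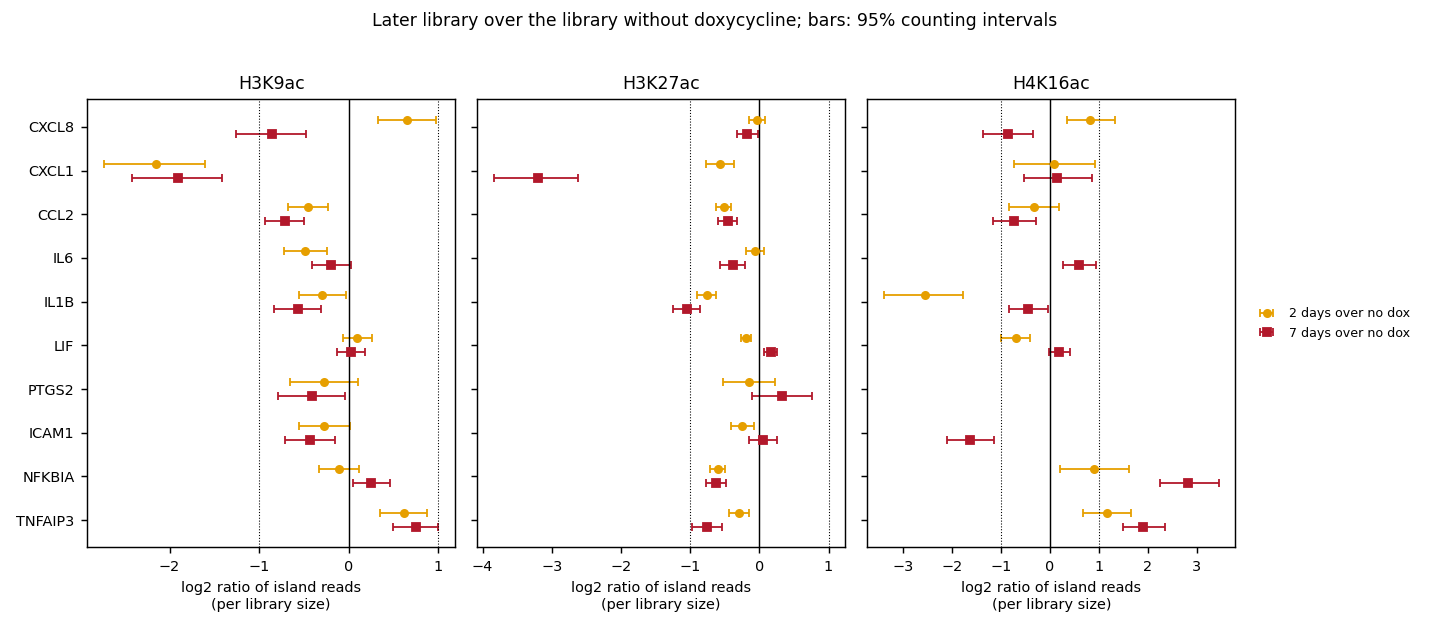
The log2 ratio of island reads per library size at each gene, 2 days (circles) and 7 days (squares) over no doxycycline, for each mark, with bars for the 95% counting interval and dotted lines at 2-fold. CXCL1 lies farthest left in H3K9ac and in H3K27ac at 7 days, and NFKBIA and TNFAIP3 farthest right in H4K16ac.

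Between the later libraries, 7 days over 2 days, the median H3K27ac log2 ratio was -0.08, with CXCL1 alone at least 2-fold lower at -2.63 (-3.28 to -2.04), beside 11.9% of all windows lower and 6.55% higher. For H3K9ac the median was -0.11, with CXCL8 alone at least 2-fold lower at -1.51 (-1.85 to -1.18), beside 7.22% lower and 12.5% higher. For H4K16ac the median over 8 genes was 0.82, with CXCL8 at least 2-fold lower at -1.69 (-2.10 to -1.28) and 3 higher, beside 3.65% lower and 34.2% higher. The 3 were IL1B at 2.10 (1.38 to 2.91), NFKBIA at 1.92 (1.54 to 2.34) and PTGS2 at 1.78 (1.27 to 2.33). All 3 were lower when counted per kb.

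**Figure D5:**
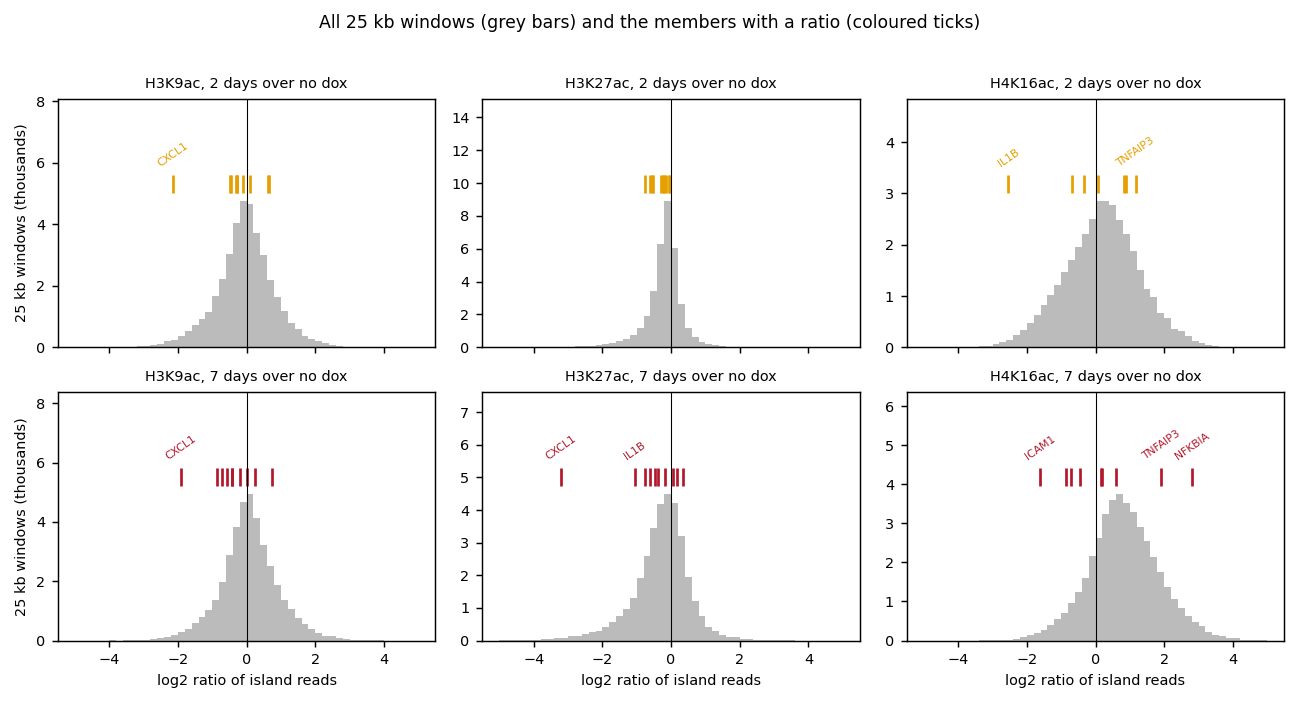
Numbers of 25 kb windows (grey bars) by log2 ratio of island reads over no doxycycline, for each mark at 2 and 7 days, with the genes that have a ratio as coloured ticks and those past 2-fold named. The genes mostly lie within the bulk of the windows, CXCL1 lies in the left tail of H3K9ac at both times and of H3K27ac at 7 days, and the H4K16ac windows at 7 days are centred above 0.

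An H3K9ac island lay within 1 kb of the start of 9 of the 10 genes before induction, and of all 10 at 2 and at 7 days. H3K27ac islands did so at 10, 10 and 9 genes, and H4K16ac islands at 4, 4 and 6. The start missing from H3K9ac was that of TNFAIP3 without doxycycline, and the start missing from H3K27ac was that of CXCL1 at 7 days. Starts of these genes were thus under H3K9ac and H3K27ac islands nearly throughout, and under H4K16ac islands less regularly. How often the starts of all genes lay under an island of each list was not counted. The counts therefore cannot be called particular to these genes.

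Other genes of the pathway were taken from a list of 23, of which 21 had a usable window. Their counts are to be read against the genome shares given above, but only loosely, since some of their windows were much longer than 25 kb. For H3K27ac the median log2 ratio over them was -0.11 at 2 days and -0.12 at 7 days over 20 genes with a ratio, and none was past 2-fold at 2 days. At 7 days 2 were at least 2-fold lower and none higher. These were VCAM1, an adhesion molecule, with 16 reads against 421 without doxycycline and a log2 ratio of -3.30 (-4.12 to -2.58), and the chemokine CXCL3, with 91 against 493 and a ratio of -1.02 (-1.36 to -0.70). Both were named after their values were seen, and per kb of island they were at 0.38 and 0.04. By role, the NF-kB subunits NFKB1, NFKB2, RELA and RELB had a median of 0.10 at 7 days. The IkB family genes NFKBIB, NFKBIE and BCL3 had one of 0.17. The 8 target genes with a ratio had one of -0.50, with 7 of the 8 below 0.

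H3K9ac over the 21 pathway genes had a median of 0.12 at 2 days, with CXCL3 at least 2-fold lower at -1.13 (-1.51 to -0.75) and the subunit RELB and the chemokine CXCL10 higher, at 1.39 (1.08 to 1.72) and 2.12 (1.53 to 2.77). All 3 turned per kb of island, to 0.32, -0.25 and -0.07, and were named after their values were seen. At 7 days the median was 0.26 and none was past 2-fold. H4K16ac at 2 days had a median of -0.60 over 16 genes, with 7 at least 2-fold lower. The 4 largest that were also lower per kb were the TNF receptor TNFRSF1A with 31 reads against 128 without doxycycline, at -2.33 (-2.95 to -1.76), RELB at -2.24 (-2.67 to -1.84), the transcription factor IRF1 at -1.55 (-1.84 to -1.26) and the adaptor TRAF1 at -1.52 (-2.01 to -1.05). The kinase MAP3K8 was the 1 gene at least 2-fold higher at 2 days, at 2.23 (1.74 to 2.76), but -0.20 per kb. At 7 days the median was 0.24 over 18 genes, with none at least 2-fold lower and MAP3K8, CXCL2 and CXCL10 higher, at 2.31, 2.33 and 2.01, and all 3 were lower per kb. These were likewise named after their values were seen.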

How the data were processed

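CUT&RUN libraries of 3 marks at 3 times were used, 1 per mark and time, with an HRP control library present through its counts. The submitters' processing notes name Bowtie2 2.3.5.1, SICER, Picard, deepTools, cutadapt and FastQC, with hg19 as the build. Settings and duplicate handling were not given in the sources at hand. Per the file headers, each deposited list gives the antibody count and the HRP control count of every island, both raw. The deposited p-value and FDR, the log2 fold over HRP and the score are the authors' values per island. The relative library size came from the constant by which each deposited log2 fold differs from the log2 ratio of its counts, with an HRP count of 0 entered as 0.25. Each library was called alone, and 1 island outside the usual chromosomes was left out.

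Gene windows were those of the rule, in kb on hg19, widened by 10 kb, and whole islands touching a window were counted. The background was all consecutive 25 kb windows in which both libraries had an island and one of them at least 50 reads, counted likewise. The windows of the 10 genes spanned 22 to 36 kb. Some pathway windows were far longer, with NFKB1 at 116 kb and IKBKB at 62 kb before widening. Called means at least 2-fold. Intervals are exact Clopper-Pearson intervals at 95%. Reads in islands are not library depth. No test between conditions was possible. The members and lists were chosen with earlier results of these data known. All 10 members are named, and of the other pathway genes those past 2-fold whose reads per kb have the same sign, at most 4 per comparison. Where a count was small, its genes are also named outside this rule, after their values were seen. Windows of pathway and marker genes, and the strands of CCL2 and LIF, were written from general knowledge. A window was used only where its length was within 2 kb of the RefSeq span, which left out REL, CHUK, SLC1A3 and ALDH1L1. Alternatives changed the widening, the sharing of reads, the scaling, the called length and the list length. Counting only islands within 1 kb of the start was added after the data were seen. Such islands were counted over their whole length, so these ratios follow island length as well as density. The ratio of counts was tried on simulated counts with island boundaries held fixed. That does not test the overlap with windows, the background or the alternatives. The code was run with Python 3.11.15, pandas 2.3.3, NumPy 2.4.6, SciPy 1.17.1 and matplotlib 3.10.9.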

Additional observations from a re-analysis of the deposited data

Results flagged for a closer look

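CXCL8 and LIF differed in direction between 2 and 7 days in summed reads. For H3K9ac the log2 ratio of CXCL8 over no doxycycline was 0.65 at 2 days and -0.86 at 7 days, and for H4K16ac it was 0.83 and -0.86. For H3K27ac the ratio of LIF was -0.19 at 2 days and 0.16 at 7 days. Each pair of ratios had counting intervals on opposite sides of 0. The difference between the times was not tested, since each time had 1 library, and both ratios of a pair share the library without doxycycline. None of the 3 opposite directions held in every way of counting. CXCL8 H3K9ac was -1.89 and -0.86 at the start and 0.12 and 0.24 per kb, and CXCL8 H4K16ac was -0.60 and -1.02 per kb and -0.15 and 0.23 with 25 kb of widening. LIF H3K27ac was -0.44 and -0.08 at the start, and 0.021 and 0.29 with reads shared out by length.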

How the results depend on the processing

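All values here are log2 ratios or counts of the 10 genes at least 2-fold lower or higher, 2 and 7 days over no doxycycline unless 7 over 2 days is named. The shares of all windows past 2-fold were counted only for whole islands scaled by library size. No such share was counted under the settings below, so these counts show how the calls moved and have no background of their own. Taking an equal number of islands per list gave 0 lower for H3K9ac at 2 days, 2 lower at 7 days and 2 higher for H4K16ac at 2 days. With no widening, H3K9ac had 2 lower at 2 days, 1 higher at 7 days, and 0 lower and 1 higher for 7 over 2 days, where CXCL8 reversed to 1.03. H3K27ac then had 0 lower at 7 days among 9 genes, as CXCL1 had no island left, and H4K16ac, with 2 genes left, a median of 1.48, 0 lower and 2 higher at 2 days and 0 lower for 7 over 2 days. Widened by 25 kb, H3K9ac had 0 lower in all 3 comparisons and CXCL1 was 0.39 at 7 days. H3K27ac then had 1 lower at 7 days and 0 for 7 over 2 days, and H4K16ac had 3 lower at 2 days, with CXCL8 at 0.38 for 7 over 2 days. At 7 days its counts held with other genes: NFKBIA (0.64), TNFAIP3 (0.88) and ICAM1 (-0.82) lost their calls, and PTGS2 (2.75), IL6 (1.09) and CXCL1 (-1.69) gained them, and TNFAIP3 at 2 days was 0.098. Islands at the start gave H3K9ac 2 lower at 2 days, 2 lower and 1 higher at 7 days, and 2 lower, 1 higher and a median of 0.33 for 7 over 2 days, with CXCL8 at 1.03. They gave H3K27ac 1 lower at 2 days, CXCL1, and 0 at 7 days among 9 genes, as CXCL1 had no start island then, and H4K16ac 0 lower and 1 higher for 7 over 2 days. Less the median of all windows, H3K27ac had 1 lower at 7 days, and H4K16ac had 0 higher at 2 days, 4 lower at 7 days and 2 lower for 7 over 2 days. Scaling by reads in islands gave 3 lower for H4K16ac at 7 days. Sharing reads by length gave 1 higher for H3K9ac and 1 lower for H3K27ac at 7 days, 0 lower for H3K27ac for 7 over 2 days, and 2 lower for H4K16ac at 7 days and for 7 over 2 days.

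Per kb of island, 0 genes were lower in H3K9ac in all 3 comparisons, with CXCL1 at 0.17 and 0.64 and CXCL8 at 0.12 for 7 over 2 days. H3K27ac medians were 0.0082 and 0.39, with 0 lower at 7 days and for 7 over 2 days, and CXCL1 was 0.025 at 7 days and 0.056 for 7 over 2 days, and IL1B 0.50 at 7 days. H4K16ac had 0 lower at 2 days, 2 lower and 0 higher at 7 days and for 7 over 2 days. Its reversed values were -0.20 and -0.40 for TNFAIP3, 1.55 for IL1B at 2 days and -1.35 for NFKBIA at 7 days, and for 7 over 2 days -0.48 for NFKBIA, -1.81 for IL1B and -0.22 for PTGS2. In the stretch called in both libraries, H3K9ac had 0 lower at 7 days and for 7 over 2 days, with CXCL8 at 0.22. H3K27ac medians were 0.065, 0.34 and, for 7 over 2 days, 0.41, with 0 lower at 7 days and 0 lower and 1 higher for 7 over 2 days, IL1B at 0.47 and CXCL1 at 1.01 for 7 over 2 days. H4K16ac had 0 lower at 2 days, a median of -0.87 with 2 lower and 0 higher at 7 days, and 0 lower and 0 higher for 7 over 2 days. IL1B was then 1.32 at 2 days, NFKBIA -1.35 and TNFAIP3 -0.45 at 7 days, and for 7 over 2 days NFKBIA was -0.48 and PTGS2 -0.17. These last settings remove differences in called length by construction, so sums that differ by length can reverse in them. Why called lengths differed was not tested, and neither was the cause of the changes under the other settings. No paired analysis was possible because there was 1 library per mark and time. Library size limits what is listed: the smallest island held 11 to 33 reads.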
